A study of Homo sapiens with 6 samples.

Results

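The heat shock chaperones described here are 10 genes of protein folding: HSPA1A, HSPA1B, DNAJB1, HSPH1, HSPB1, HSPA8, HSP90AA1, BAG3, HSPD1 and HSPE1. They were taken by symbol from a table of normalized read counts with 34114 genes. All 10 were present, and all 10 were among the 19575 genes tested, those whose normalized count averaged 10 or more over the libraries. The first 8 encode proteins of the cytosol and nucleus, and HSPD1 and HSPE1 encode proteins of the mitochondrial matrix.

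The libraries represent 3 established cell lines of acute myeloid leukemia, MOLM-14, NOMO-1 and SKM-1. Each line was transfected with short hairpin RNA (shRNA), either a scrambled control or an shRNA against NCAM1, the adhesion protein also known as CD56, and was collected at 72 h. There was 1 library for each line and condition, so 3 control and 3 knockdown libraries, and each comparison of the conditions within a line rests on 1 library a side. Every library had received a transfected shRNA, and the labels give neither the hairpin sequences nor a number of clones. The name of the SKM-1 knockdown column carries a letter that those of the other lines lack, and whether the 3 knockdowns share 1 hairpin is not given. They are averaged here as the labels group them.

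Heat shock proteins hold unfolded proteins, fold them or pass them on. HSP70 proteins bind short hydrophobic stretches in a cycle of ATP binding and release, J-domain proteins such as DNAJB1 deliver the client and speed up ATP hydrolysis, and nucleotide exchange factors such as HSPH1 and BAG3 open the cycle again. HSP90 acts later, on kinases and receptors that are nearly folded, and the HSPD1 and HSPE1 proteins form the folding chamber of mitochondria. Many of these genes are switched on together by heat shock factor 1 (HSF1), which binds repeats of GAA and its reverse complement in their promoters when unfolded proteins accumulate, and leukemia cells often depend on several of them.

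The libraries held 41916991 to 47688779 reads assigned to genes. NCAM1, the target, went from 6004 to 1896 normalized counts in MOLM-14, from 1163 to 312 in NOMO-1 and from 12537 to 101 in SKM-1, lower in the knockdown library of each line. At least 2-fold differences between the conditions were far more numerous in SKM-1 (3077 genes higher, 3227 lower) than in MOLM-14 (696 and 788) or NOMO-1 (795 and 1452). Of 10 myeloid markers, 10 had at least 10 normalized counts in every library. Their summed level ran from 50446 to 777487 in the control and from 45744 to 82548 in the knockdown libraries, and MPO, the granule enzyme myeloperoxidase, accounts for the highest value, at 728824 in the SKM-1 control against 6166 in its knockdown. T cell markers summed to 108 to 4788 in control and 67.0 to 3511 in knockdown libraries (4 of 6 reached 100 counts in some library), B cell markers to 555 to 1300 and 119 to 2269 (5 of 5), and epithelial or stromal markers to 393 to 2627 and 679 to 3578 (3 of 6). The 2 erythroid markers in the table summed to 33.4 or less, with HBB at 0 in both MOLM-14 and both NOMO-1 libraries. Their part in the results below was not tested.

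In these cells the heat shock chaperones were on average higher after NCAM1 knockdown, but no gene of the 10 passed the test over all genes. The 10 were chosen with earlier results of these data known, and HSPA1A and HSPA1B share reads, so the shares given here are a description. The mean log2 ratio over the 3 lines was above 0 for 10 of 10, against 49.4% of all genes tested. HSPA1B, HSPH1, HSPA8, HSP90AA1, BAG3 and HSPE1 were higher in all 3 lines, 6 of 10 against 14.6% of all genes, and 0 of 10 were lower in all 3 lines, against 15.9%. The median of the 10 mean log2 ratios was 0.51, a 1.43-fold ratio, while the median over all genes tested was -0.0072. Without NOMO-1, 7 of 10 had a mean above 0 and the median of the 10 was 0.27.

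By limma with the cell line as a block and Benjamini-Hochberg adjustment, 0 of 10 chaperones and 0 of 19575 genes (0.0%) had an adjusted p under 0.05. At an unadjusted p under 0.05, HSPH1 and HSPA8 were on the higher side, 2 of 10 against 1.59% of all genes, and 877 genes passed in either direction. edgeR on the recovered reads called 0 genes. HSPH1 alone among the 10 was at an unadjusted edgeR p under 0.05, as were 863 of the 19575 genes, 334 of them higher. DESeq2 called 43 genes (0.22%), 11 of them higher (0.0562%), and none of the 10. HSPA8, HSPH1 and HSPA1B were at an unadjusted DESeq2 p under 0.05, as were 1102 of the 19575 genes, 410 of them higher. With 3 pairs an exact sign-flip test cannot go below p = 0.25. Without NOMO-1, 0 of the 10 were at an unadjusted p under 0.05 and 223 genes were.

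The values of each line are given side by side, since 1 pair of libraries a line allows no test between lines. In MOLM-14, 8 of 10 were higher (48.4% of all genes) with a median log2 ratio of 0.31, and 0 were at least 2-fold higher (3.56%). In NOMO-1, 10 of 10 were higher (49.0%) with a median of 0.69, and HSPH1 and HSPE1 were at least 2-fold higher (4.06% of all genes). In SKM-1, 8 of 10 were higher (48.0%) with a median of 0.23. There HSPA1A, HSPA1B and BAG3 were at least 2-fold higher, 3 of 10 in a line where 15.7% of all genes were. HSPA1A and HSPA1B share most of their sequence, so they are not separate observations.

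**Figure D1:**
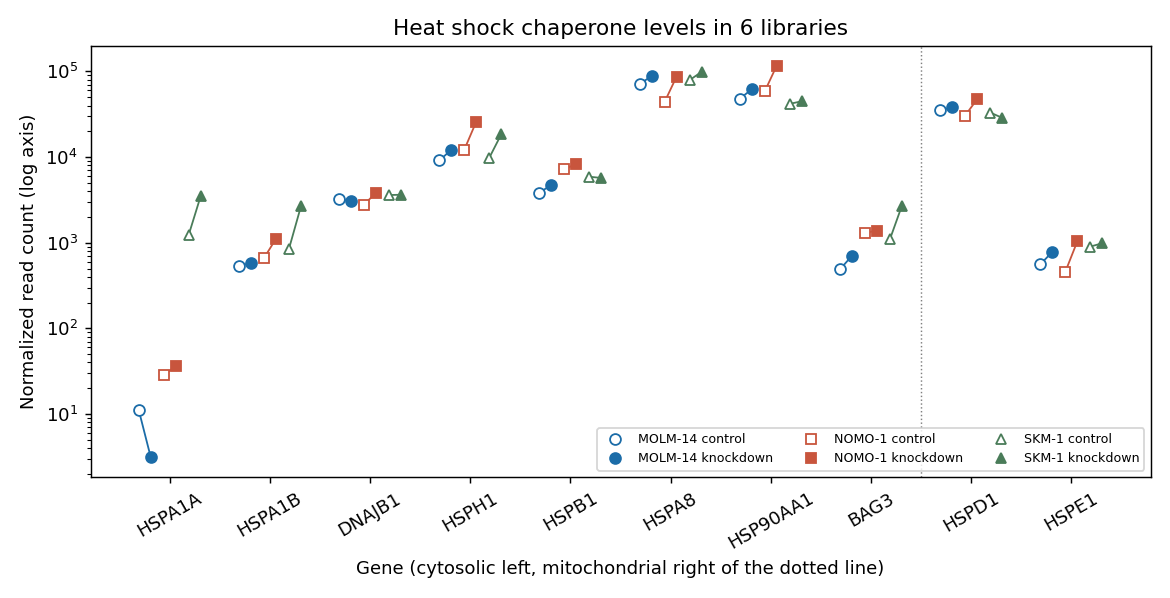
Normalized read count (log axis) of the 10 heat shock chaperones, with open symbols for the control and filled symbols for the knockdown library of MOLM-14 (circles), NOMO-1 (squares) and SKM-1 (triangles), each pair joined by a line. HSPA1A spans 3.13 to 3549, while HSPA8 stays between 44042 and 98967 with all 3 knockdown libraries above all 3 controls.

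Added up, the 10 genes took 0.369% of all normalized counts in the MOLM-14 control and 0.460% in its knockdown. The share was 0.367% and 0.709% in NOMO-1, and 0.401% and 0.480% in SKM-1. HSPA8, HSP90AA1 and HSPD1 had the highest levels per length. Normalized counts per kilobase of transcript had a median over the 6 libraries of 33796 for HSPA8, 15181 for HSP90AA1, 13955 for HSPD1 and 6380 for HSPB1. The median was 2340 for HSPH1, 1506 for DNAJB1, 885 for HSPE1, 468 for BAG3, 299 for HSPA1B and 13.1 for HSPA1A. Neighbours in this order overlapped over the 6 libraries except at the following steps. HSPD1 lay above HSPB1 (11705 or more against 9191 or less) and HSPH1 above DNAJB1 (1759 or more against 1698 or less). DNAJB1 lay above HSPE1 (1234 or more against 1089 or less). Parts of the HSPE1, HSPA1B and HSPA1A transcripts also occur in other genes, so counting can split or drop their reads. The places of these genes in the order, and the step from DNAJB1 to HSPE1, are therefore uncertain.

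The promoters were read because these genes are known to share HSF1. RefSeq windows of 300 bases (250 before to 50 after an annotated start site, GRCh38.p14) existed for all 10 genes, 14 windows in all. They were searched on both strands for 3 alternating units (GAANNTTCNNGAA or TTCNNGAANNTTC, which are each other's reverse complement) and for 2 units (GAANNTTC or TTCNNGAA, each its own reverse complement and each contained in the longer motifs). The 3-unit motif lay in windows of HSPD1, HSPA8 and HSP90AA1, 3 of 14 windows against 0.490% of the 35116 windows of the table. The 2-unit motif lay in windows of 7 of the 10 genes, 8 of 14 windows against 13.5% of all windows. Windows of HSPH1, BAG3 and HSPE1 held neither, which says only that these letters are not in those windows. The sites are shown because the genes that carry them can then be set beside their ratios, with the matched units in capitals and each read 5′ to 3′ on the strand of its gene.
HSPA8, chr11:123062346-123062374, minus strand, 230 bases before the start site: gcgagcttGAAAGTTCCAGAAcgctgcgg
HSPA8, chr11:123062171-123062199, minus strand, 55 bases before the start site: cgggccccTTCTGGAAGGTTCtaagatag
HSP90AA1, chr14:102087112-102087140, minus strand, 88 bases before the start site: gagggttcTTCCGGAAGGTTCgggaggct
HSPD1, chr2:197500062-197500090, minus strand, 245 bases before the start site, 2 overlapping matches: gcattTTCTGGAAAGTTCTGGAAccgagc
DNAJB1, chr19:14518421-14518514, minus strand, 2 separate 2-unit matches: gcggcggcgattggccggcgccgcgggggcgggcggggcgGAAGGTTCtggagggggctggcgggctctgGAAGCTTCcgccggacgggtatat

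The HSPA8, HSP90AA1 and HSPD1 sites also lie in exons of longer annotated transcripts of those genes, and the HSPD1 site in exons of HSPE1 as well. The DNAJB1 stretch lies outside annotated exons. The 3 genes with a 3-unit motif had mean log2 ratios of 0.54, 0.49 and 0.18. The 4 with the 2-unit motif alone (HSPA1A, HSPA1B, DNAJB1 and HSPB1) had 0.10, 0.85, 0.13 and 0.16. The 3 with neither motif in their windows (HSPH1, BAG3 and HSPE1) had 0.80, 0.64 and 0.60. The HSPE1 window begins at chr2:197500129, so the HSPD1 site, which ends at 197500090, lies just outside it. The place of HSPE1 in this grouping thus depends on the window length. A match is a sequence description and no measurement of HSF1 binding.

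HSPA1A and HSPA1B encode the stress-inducible HSP70 and are near-identical neighbours, so they are read together. The stretch before their start sites is shown because it differs at 1 of 67 bases and holds the same 2-unit motif.
HSPA1A, chr6:31815397-31815463, plus strand: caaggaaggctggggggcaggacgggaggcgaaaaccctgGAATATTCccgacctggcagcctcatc
HSPA1B, chr6:31827593-31827659, plus strand: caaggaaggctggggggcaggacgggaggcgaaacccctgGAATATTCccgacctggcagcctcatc

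Within their transcripts, 69.9% of the 100-base windows of HSPA1A and 72.7% of those of HSPA1B also occurred in another gene, so counting can split or drop reads between them and each value alone is uncertain. HSPA1A (ENSG00000204389) had 11.2 normalized counts in the control and 3.13 in the knockdown library of MOLM-14, 28.3 and 36.5 in NOMO-1, and 1248 and 3549 in SKM-1. Its level thus set SKM-1 apart from both other lines, and the MOLM-14 ratio rests on 10 and 3 reads. The knockdown to control ratio was 0.281 in MOLM-14 (exact conditional 95% interval 0.0497 to 1.09), 1.29 in NOMO-1 (0.782 to 2.14) and 2.84 in SKM-1 (2.67 to 3.04). These intervals cover counting error only, and fewer cells of a type and less RNA per cell cannot be told apart in such bulk libraries. The mean log2 ratio was 0.10 ± 1.55 (SD, n = 3 lines), smaller than its spread, with a limma adjusted p of 0.969. It was -0.60 without SKM-1 and -0.025 without NOMO-1.

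HSPA1B (ENSG00000204388) had 532 and 584 normalized counts in MOLM-14, 660 and 1112 in NOMO-1, and 849 and 2675 in SKM-1, control first. It was higher in the knockdown library of each line, while the MOLM-14 knockdown lay below the NOMO-1 and SKM-1 controls. The ratios were 1.10 (0.969 to 1.24), 1.68 (1.53 to 1.85) and 3.15 (2.92 to 3.41). Over the lines the log2 ratio averaged 0.85 ± 0.76 (SD, n = 3 lines; SE 0.34) with a limma adjusted p of 0.779, and it was 0.44 without SKM-1.

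The sum of both genes does not depend on how shared reads were split between them. It was 543 and 587 normalized counts in MOLM-14, 689 and 1149 in NOMO-1, and 2097 and 6224 in SKM-1. The sum was 1.08 times the control in MOLM-14 (0.955 to 1.22), 1.67 times in NOMO-1 (1.52 to 1.83) and 2.97 times in SKM-1 (2.82 to 3.12). Reads that match both genes may be missing from it, so it is not a full measure of inducible HSP70. For the sum, the mean log2 ratio was 0.81 ± 0.73 (SD, n = 3 lines) with a limma adjusted p of 0.779. HSPA1A took 2.05% of the summed reads in the MOLM-14 control and 0.534% in its knockdown, 4.12% and 3.18% in NOMO-1, and 59.5% and 57.0% in SKM-1. The SKM-1 share had exact binomial 95% intervals of 57.3% to 61.6% and 55.8% to 58.2%, and the highest upper bound in the other lines was 5.82%.

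**Figure D2:**
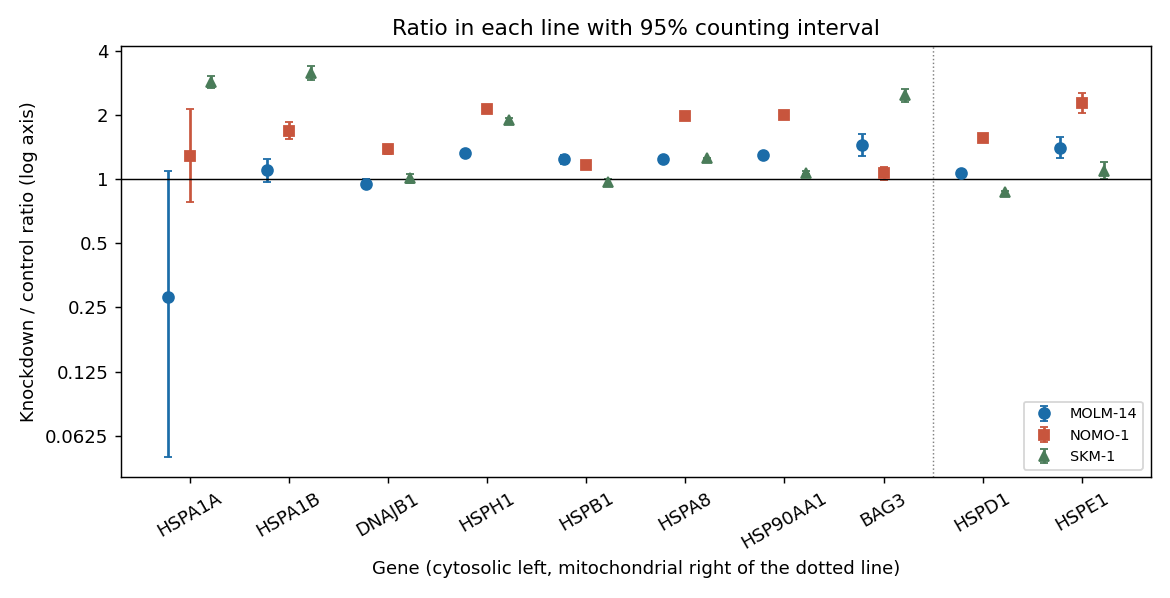
Ratio of knockdown over control (log axis) for each heat shock chaperone in MOLM-14 (circles), NOMO-1 (squares) and SKM-1 (triangles), with bars for the exact conditional 95% interval of the read ratio, which covers counting error only. HSPA1B and BAG3 are highest in SKM-1 (3.15 and 2.47), and HSPA8, HSP90AA1, HSPD1 and HSPE1 are highest in NOMO-1.

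DNAJB1 (ENSG00000132002), the main J-domain partner of inducible HSP70, had 3213 and 3059 normalized counts in MOLM-14, 2793 and 3844 in NOMO-1, and 3605 and 3634 in SKM-1. The knockdown library was higher beyond counting error in NOMO-1, at a ratio of 1.38 (1.31 to 1.44). In MOLM-14 (0.952, 0.904 to 1.003) and SKM-1 (1.01, 0.963 to 1.06) the interval held 1. On average the log2 ratio was 0.13 ± 0.29 (SD, n = 3 lines), with a limma adjusted p of 0.849, and it was -0.030 without NOMO-1. No 100-base window of DNAJB1, HSPH1, HSPA8 or BAG3 occurred in another gene.

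HSPH1 (ENSG00000120694), the HSP110 exchange factor of HSP70, had the smallest p of the 10. Its normalized counts were 9132 and 12112 in MOLM-14, 12187 and 25937 in NOMO-1, and 9828 and 18506 in SKM-1. Each knockdown library was above its own control, and the MOLM-14 knockdown was just below the NOMO-1 control, so the groups overlapped. The ratios were 1.33 (1.29 to 1.36), 2.13 (2.08 to 2.17) and 1.88 (1.84 to 1.93). The mean log2 ratio was 0.80 ± 0.35 (SD, n = 3 lines; SE 0.19). limma gave an unadjusted p of 0.0096 and an adjusted p of 0.779, and DESeq2 an adjusted p of 0.243. It exceeded the log2 ratio of DNAJB1 by 0.48 (MOLM-14), 0.63 (NOMO-1) and 0.90 (SKM-1), a description with no test.

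BAG3 (ENSG00000151929), an exchange factor that also leads clients to autophagy, was high in SKM-1 after knockdown. It had 487 and 704 normalized counts in MOLM-14, 1303 and 1385 in NOMO-1, and 1102 and 2719 in SKM-1. The ratio was 1.44 in MOLM-14 (1.28 to 1.63), 1.06 in NOMO-1 (0.988 to 1.14) and 2.47 in SKM-1 (2.30 to 2.65). NOMO-1, where 6 of the other 9 chaperones had their highest ratio, had the lowest ratio of BAG3. Its mean log2 ratio was 0.64 ± 0.61 (SD, n = 3 lines) with a limma adjusted p of 0.779, and it was 0.31 without SKM-1.

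HSPB1 (ENSG00000106211), the small heat shock protein HSP27, which holds unfolded proteins without ATP, differed little. It had 3840 and 4744 normalized counts in MOLM-14, 7185 and 8355 in NOMO-1, and 5896 and 5702 in SKM-1. The ratios were 1.24 (1.18 to 1.29), 1.16 (1.13 to 1.20) and 0.967 (0.933 to 1.00). Higher values in MOLM-14 and NOMO-1 thus stood beside a ratio in SKM-1 whose interval held 1. Its mean log2 ratio was 0.16 ± 0.18 (SD, n = 3 lines), within its spread, with a limma adjusted p of 0.805, and it was 0.085 without MOLM-14 and 0.26 without SKM-1.

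HSPA8 (ENSG00000109971), the constitutive HSP70 of the cytosol, was the only chaperone of the 10 whose groups did not overlap, against 2.23% of all genes that were higher in this way. It had 71263, 44042 and 79277 normalized counts in the MOLM-14, NOMO-1 and SKM-1 controls. The knockdown libraries had 88045, 87201 and 98967. The ratios were 1.24 (1.22 to 1.25), 1.98 (1.96 to 2.002) and 1.25 (1.24 to 1.26). NOMO-1, with the lowest control, had the largest ratio. The mean log2 ratio was 0.54 ± 0.39 (SD, n = 3 lines; SE 0.20), with a limma unadjusted p of 0.0446 and adjusted p of 0.779, and it was 0.31 without NOMO-1.

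HSP90AA1 (ENSG00000080824), the stress-responsive HSP90 alpha, had 47913 and 61896 normalized counts in MOLM-14, 58654 and 117220 in NOMO-1, and 41840 and 44872 in SKM-1. The NOMO-1 knockdown stood above the other 5 libraries, and the SKM-1 knockdown lay below the MOLM-14 control. The ratios were 1.29 (1.28 to 1.31), 1.998 (1.98 to 2.02) and 1.07 (1.06 to 1.09). On average the log2 ratio was 0.49 ± 0.46 (SD, n = 3 lines) with a limma adjusted p of 0.779, and it was 0.24 without NOMO-1. HSPA8 and HSP90AA1 together had a median log2 ratio of 0.34, 0.99 and 0.21 in the 3 lines, while the 6 other cytosolic chaperones (HSPA1A, HSPA1B, DNAJB1, HSPH1, HSPB1 and BAG3) had 0.22, 0.41 and 1.11. HSPA1A and HSPA1B share reads but enter these medians separately, with log2 ratios of 1.51 and 1.65 in SKM-1. There DNAJB1 had 0.012, HSPH1 0.91, HSPB1 -0.048 and BAG3 1.30, so the SKM-1 median depends on that pair.

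The mitochondrial chaperones were higher in MOLM-14 and NOMO-1 and split in SKM-1. HSPD1 (ENSG00000144381), the HSP60 ring, had 35371 and 37946 normalized counts in MOLM-14, 30482 and 47356 in NOMO-1, and 33150 and 28736 in SKM-1. The ratios were 1.07 (1.06 to 1.09), 1.55 (1.53 to 1.58) and 0.867 (0.854 to 0.880), so SKM-1 was on the lower side beyond counting error. Over the lines the log2 ratio averaged 0.18 ± 0.43 (SD, n = 3 lines) with a limma adjusted p of 0.824, and it was -0.052 without NOMO-1.

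HSPE1 (ENSG00000115541), the HSP10 lid of the same chamber, had 558 and 781 normalized counts in MOLM-14, 456 and 1035 in NOMO-1, and 901 and 987 in SKM-1. The ratios were 1.40 (1.25 to 1.57), 2.27 (2.04 to 2.53) and 1.10 (1.001 to 1.20), with NOMO-1 going from the lowest control to the highest library. The mean log2 ratio was 0.60 ± 0.53 (SD, n = 3 lines) with a limma adjusted p of 0.779, and it was 0.31 without NOMO-1. HSPE1 exceeded HSPD1 by 0.38, 0.54 and 0.34 in log2 ratio, a mean of 0.42 ± 0.11 (SD, n = 3 lines), which was not tested. HSPD1 and HSPE1 lie head to head, and 33.5% of the 100-base windows of HSPE1 occur in another gene, 16.5% in HSPD1 and 11.0% in a read-through gene, HSPE1-MOB4. The HSPE1 count is therefore uncertain, and of HSPD1 3.90% of windows were shared.

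Cytosolic and mitochondrial chaperones differed by less than the spread between lines. The median log2 ratio of the 8 cytosolic genes was 0.31 for MOLM-14, 0.61 for NOMO-1 and 0.62 for SKM-1. For the mitochondrial pair it was 0.29, 0.91 and -0.038. The difference, cytosolic minus mitochondrial, was 0.012, -0.30 and 0.65, a mean of 0.12 ± 0.49 (SD, n = 3 lines). HSPA1A and HSPA1B share reads but count separately among the 8, with the largest log2 ratios in SKM-1 (1.51 and 1.65). Leaving out both, the median of the remaining chaperones, cytosolic and mitochondrial, was 0.34, 0.81 and 0.12. It was 0.31, 0.69 and 0.23 with them, so the SKM-1 difference depends on that pair. Without NOMO-1 the median of the mean log2 ratios was 0.27 in place of 0.51 for the cytosolic genes and 0.13 in place of 0.39 for the mitochondrial pair. Without SKM-1 the order turned, with 0.38 for the cytosolic genes and 0.60 for the mitochondrial pair.

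**Figure D3:**
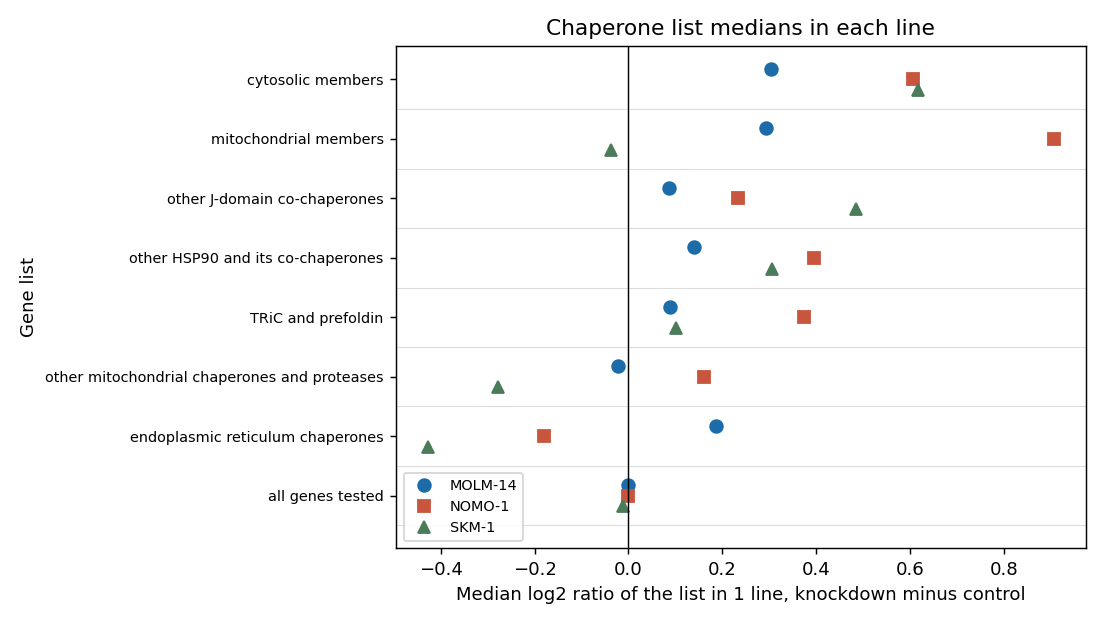
Median log2 ratio (knockdown minus control) in MOLM-14 (circles), NOMO-1 (squares) and SKM-1 (triangles) for the 8 cytosolic and 2 mitochondrial heat shock chaperones, for 5 other chaperone lists and for all genes tested. The cytosolic genes lie at 0.31 to 0.62 in the 3 lines and the mitochondrial pair at -0.038 in SKM-1, while all genes lie near 0. HSPA1A and HSPA1B, which share reads, count separately among the 8.

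Between the lines, taken over both libraries of each, the shares of chaperones called were near or below those of all genes, and HSPA1A had the largest contrast of the 10. In limma contrasts from the same fit, called at an adjusted p under 0.05 and at least 2-fold, SKM-1 exceeded MOLM-14 for HSPA1A and BAG3, 2 of 10 where 15.9% of all genes were called. HSPA1A averaged 2398 normalized counts in SKM-1, 32.4 in NOMO-1 and 7.14 in MOLM-14. It was higher in SKM-1 than in MOLM-14 by 8.21 on the log2 scale (SE 0.79, adjusted p = 0.0064) and than in NOMO-1 by 5.99 (adjusted p = 0.0132), the 1 call of 10 in that contrast, where 13.7% of all genes were called. The sum of HSPA1A and HSPA1B differed less, by 2.68 (limma adjusted p = 0.0178) and 2.02 (adjusted p = 0.0369). The libraries of a line differ by the shRNA, so p-values of the line contrasts do not measure variation between cultures of a line.

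BAG3 averaged 1911 in SKM-1, 1344 in NOMO-1 and 595 in MOLM-14, and the contrast of SKM-1 with MOLM-14 was 1.56 (SE 0.36, limma adjusted p = 0.0485). That call is at the threshold: the adjusted p was 0.0572 with edgeR and 0.0024 with DESeq2. None of the 10 was called between NOMO-1 and MOLM-14 (0 of 10, 13.3% of all genes) by limma, while DESeq2 called HSPA1A and BAG3. The share of all genes that DESeq2 called in this contrast was not computed, so its calls have no background here. The smallest limma adjusted p there was that of HSPB1, at 7770 in NOMO-1, 5799 in SKM-1 and 4292 in MOLM-14. HSPB1 was 0.86 higher in NOMO-1 than in MOLM-14 with an adjusted p of 0.0575, but at 1.82-fold it was under the 2-fold threshold. BAG3 (2.29-fold, limma adjusted p = 0.0992) and HSPA1A (4.68-fold, limma adjusted p = 0.139) passed the fold threshold only. HSPA1B followed the order of HSPA1A, with 1762 in SKM-1, 886 in NOMO-1 and 558 in MOLM-14, but its largest contrast of 1.43 had an adjusted p of 0.0833. HSP90AA1 had the other order, 87937 in NOMO-1, 54905 in MOLM-14 and 43356 in SKM-1. Its contrast of -0.94 (SKM-1 minus NOMO-1), 1.91-fold and so also under the fold threshold, had a limma adjusted p of 0.0894. For DNAJB1, HSPH1, HSPA8, HSPD1 and HSPE1 no contrast between lines passed.

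The other genes of the chaperone network were read from lists of their roles. Of 103 tested genes, each counted once, 68 had a mean log2 ratio above 0 (49.4% of all genes), 36 were higher in all 3 lines (35.0%, against 14.6% of all genes) and 7 were lower in all 3 (15.9% of all genes). Their median was 0.14, between that of the 10 heat shock chaperones and that of all genes. limma, edgeR and DESeq2 called 0 of them.

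**Figure D4:**
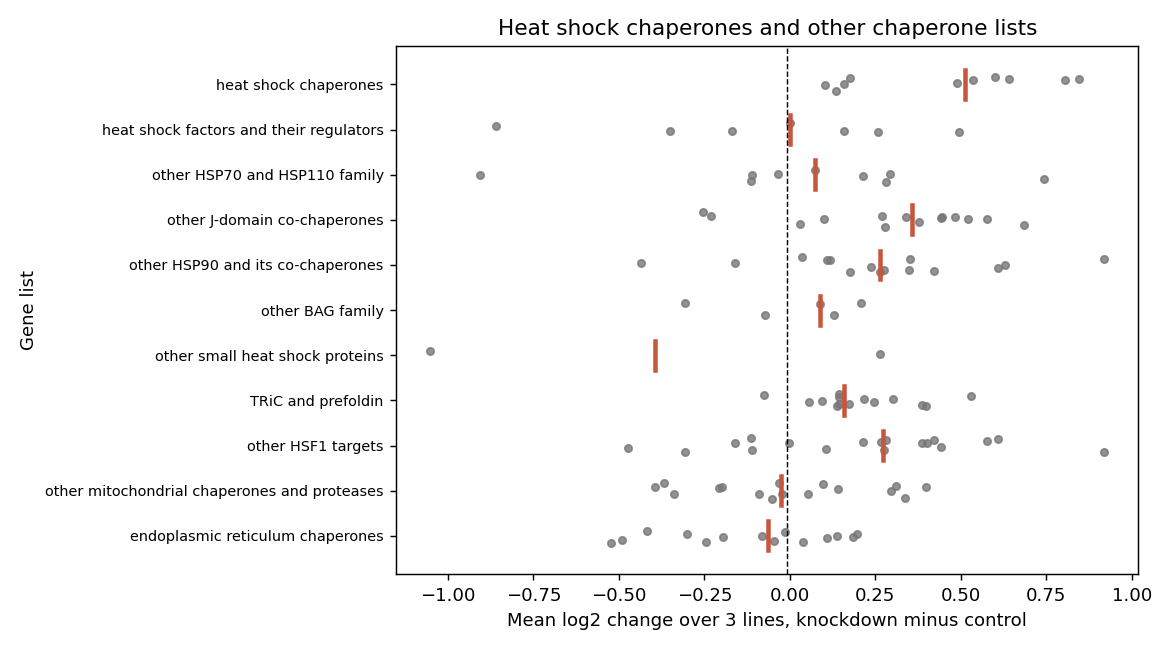
Mean log2 ratio over the 3 lines (knockdown minus control) of each tested gene (points) in the heat shock chaperones and 10 other chaperone lists, with the list median as a bar and the median of all genes as a dashed line. The J-domain list has a median of 0.36 and the HSP90 list 0.26, and the mitochondrial and endoplasmic reticulum lists lie at -0.027 and -0.064.

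The regulators of the response had no common direction, with 4 of 7 above and 3 of 7 below 0. HSF1 itself, named here for its role and outside the naming rule, had 3487 and 3277 normalized counts in MOLM-14, 3770 and 4005 in NOMO-1, and 5663 and 5684 in SKM-1, a mean log2 ratio of 0.0010 ± 0.089 (SD, n = 3 lines). HSF4, a heat shock factor best known from the lens, had 590 and 358, 273 and 165, and 564 and 256 in the same order. Its mean log2 ratio of -0.86 ± 0.24 (SD, n = 3 lines) had a limma adjusted p of 0.779. IER5, a protein that binds HSF1, had -0.35 ± 0.11, and VCP, an unfolding ATPase, had 0.49 ± 0.57 with most of it in SKM-1 (1.15).

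Among the co-chaperones of HSP70, 12 of 14 other J-domain genes had a mean above 0, 8 were higher in all 3 lines and 0 lower. DNAJA1, the major cytosolic J-domain protein of its class, had 6175 and 7580 normalized counts in MOLM-14, 10209 and 19036 in NOMO-1, and 10203 and 14751 in SKM-1, a mean log2 ratio of 0.58 ± 0.30 (SD, n = 3 lines). DNAJB2 had 0.68 ± 0.74, with 1.54 in SKM-1, and DNAJC2, a ribosome-bound J-domain protein, had 0.48 ± 0.34. The other HSP70 and HSP110 genes were mixed, with 5 of 9 above 0 and 0 of 9 higher in all 3 lines. HSPA4, a paralog of HSPH1, had 0.21 ± 0.27 and was on the lower side in SKM-1. HSPA12A ran from 0 in both MOLM-14 libraries to 152 in the SKM-1 knockdown, and HSPA12B had 12.5 to 80.3 counts. Of 5 other BAG genes 3 were above 0, with mean log2 ratios of 0.21 ± 0.13 for BAG4, 0.13 ± 0.17 for BAG5 and -0.31 ± 0.52 for BAG2. Only 2 of the 9 genes listed as other small heat shock proteins were tested, HSPB11 at 0.26 ± 0.038 and HSPB7, which had 60.2 counts or less, at -1.05 ± 0.81.

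The HSP90 machinery had 13 of 15 genes above 0, with 9 higher and 1 lower in all 3 lines. CHORDC1, a co-chaperone of HSP90, had 2273 and 2790 normalized counts in MOLM-14, 2902 and 5969 in NOMO-1, and 1757 and 4716 in SKM-1. Its mean log2 ratio of 0.92 ± 0.57 (SD, n = 3 lines; limma adjusted p = 0.779) was above that of each of the 10 heat shock chaperones. PPID, a cyclophilin that binds HSP90, had 0.63 ± 0.31, and STIP1, which links HSP70 to HSP90, had 0.61 ± 0.48. In the TRiC chaperonin and prefoldin list, which folds actin and tubulin, 13 of 14 were above 0 and 8 were higher in all 3 lines. CCT6A had 0.53 ± 0.33, CCT3 0.40 ± 0.31 and TCP1 0.39 ± 0.20, each highest in NOMO-1. Other HSF1 targets had 12 of 18 above 0 with a median of 0.27, and this list repeats CHORDC1, DNAJA1 and STIP1.

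Outside the cytosol the direction was not shared. Of 16 other mitochondrial chaperones and proteases 7 were above and 9 below 0, with a median log2 ratio of -0.023 for MOLM-14, 0.16 for NOMO-1 and -0.28 for SKM-1. HSPA9, the mitochondrial HSP70, had 27009 and 25557 normalized counts in MOLM-14, 20141 and 31274 in NOMO-1, and 19463 and 26679 in SKM-1, a mean log2 ratio of 0.34 ± 0.37. LONP1, a matrix protease, had -0.37 ± 0.25, and CLPB, a disaggregase, had 0.40 ± 0.56. The 14 endoplasmic reticulum chaperones had 5 above and 9 below 0, and 0 in one direction in all 3 lines. Their median was 0.19 for MOLM-14, -0.18 for NOMO-1 and -0.43 for SKM-1. PDIA6, PDIA4 and PDIA3, disulfide isomerases, had means of -0.42 ± 0.56, -0.49 ± 0.87 and -0.25 ± 0.32, each above 0 in MOLM-14 and lowest in SKM-1.

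The genes whose 3 log2 ratios were nearest to the chaperone medians (0.31, 0.69 and 0.23) were LEKR1, EIF5B, GALNT10, CLU and ZNF778, among 13291 genes with a mean of 100 or more. Their Euclidean distances to those medians were 0.052, 0.061, 0.081, 0.082 and 0.098 over the 3 lines. EIF5B had 8714 and 10578 normalized counts in MOLM-14, 7385 and 11811 in NOMO-1, and 10016 and 11287 in SKM-1. The 10 chaperones themselves lay farther from their own medians, from 0.31 for HSPA8 to 2.29 for HSPA1A. With 3 points a gene, this likeness is a description of the ratios.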

How the data were processed

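Messenger RNA of 6 libraries was sequenced as paired 100 bp reads after a TruSeq v2 preparation, per the labels. The deposited signal values are counts of reads per gene, scaled by the authors with 1 factor for each library. The log2 values, also deposited by the authors, were transformed by a method that the sources used here do not name. Per the submitters' processing notes, the build was hg19 and the tools were HTSeq 0.6.1p1, STAR, bcl2fastq 1.8.4 and DESeq2 1.12.4. Their settings, strand and annotation were not given, so overlapping and antisense genes cannot be separated. Whole reads were recovered for 100% of values (tolerance 0.001) and gave the depth of each library.

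Genes averaging 10 or more normalized counts were tested, two-sided, with limma 3.58.1 in R 4.3.3 (eBayes, trend) on log2(normalized count + 1), which understates the change of low genes, with the cell line as a block and Benjamini-Hochberg adjustment. The line pairs the libraries: deviations from the group means correlated at 0.850, 0.863 and 0.710 within the lines. The replicates are different lines, so p-values of the knockdown comparison measure the spread between lines. Those of the line contrasts rest on the residual of the same fit, with a control and a knockdown library per line. They do not measure variation between cultures of a line. Alternatives were edgeR 4.0.16 and DESeq2 1.42.0 on recovered reads, pseudocounts of 0.5 and 8, no filter or a filter of 50, other scalings, the authors' transformed values, no block, other moderation, any fold in the line contrasts, HSPA1A and HSPA1B summed, and leaving out each line. The limma and edgeR fits were also run on simulated data with changes of at least 2-fold, equal in all lines. Smaller changes, or changes that differ between lines, were not simulated.

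The 10 chaperones and the lists were chosen with earlier results of these data known. Beside them, the naming rule took up to 3 genes per list by smallest p and the 5 nearest genes in ratio. Transcript lengths, exons and shared windows came from GENCODE 29 and promoters from RefSeq, both on GRCh38 and not the build of the counts.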

Additional observations from a re-analysis of the deposited data

Results flagged for a closer look

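HSPD1, which encodes the HSP60 ring of mitochondria, was lower in the knockdown library of SKM-1 and higher in those of the other lines. Its ratio of knockdown over control was 0.867 in SKM-1 (exact conditional 95% interval 0.854 to 0.880), 1.07 in MOLM-14 (1.06 to 1.09) and 1.55 in NOMO-1 (1.53 to 1.58). There is 1 pair of libraries a line, so the difference between lines was not tested, and the intervals cover counting error only. Groups of 3 libraries are too small for a test of single outlying values.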

How the results depend on the processing

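No heat shock chaperone was called for the knockdown under any alternative run, and the lowest adjusted p of the 10 was 0.243 (HSPH1, DESeq2). For all genes, limma called 0, edgeR 0 and DESeq2 43. Without the replicate block, limma called 0 genes, with 141 in place of 877 at an unadjusted p under 0.05. HSPH1 and not HSPA8 was then among them, no chaperone call changed, and the line contrasts have no fit without the line term. Leaving out each line moved that count from 223 (without NOMO-1) to 1389 (without SKM-1) and left 0 genes called. It moved the median log2 ratio of the chaperones between 0.27 and 0.65, of the cytosolic ones between 0.27 and 0.67 and of the mitochondrial pair between 0.13 and 0.60. Mean log2 ratios that turned sign ran from -0.60 to 0.93 for HSPA1A, from -0.030 to 0.24 for DNAJB1 and from -0.052 to 0.37 for HSPD1. Between SKM-1 and MOLM-14, 1 chaperone (HSPA1A) in place of 2 was called with a pseudocount of 8, no filter, a filter of 50, quantile normalization, the transformed values, no trend or edgeR, and DESeq2 called 3, with HSPA1B. Between NOMO-1 and MOLM-14, DESeq2 called 2 and limma 0. The cause was not tested, and the shares of all genes called by edgeR or DESeq2 in the line contrasts were not computed. Leaving out a line removes its contrasts, so those were not rerun that way. HSPA1A in MOLM-14, at 10 and 3 reads, is the value that depth limits.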

Other observations

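Neighbours and copies of the chaperone genes were picked after their values were seen. Those that share sequence with them add to the uncertainty of counting. HSPA1L, the third HSP70 gene beside HSPA1A and HSPA1B, had 23.4 and 23.0 normalized counts in MOLM-14, 25.5 and 18.2 in NOMO-1, and 133 and 336 in SKM-1, control first. It was thus highest in SKM-1, the line with the highest HSPA1A. HSPA1L shared no 100-base window with HSPA1A or HSPA1B. AL671762.1, which has no counts here, held 30.5% of the windows of HSPA1A and 33.9% of those of HSPA1B. HSPD1P1, a processed pseudogene of HSPD1, had 2134 and 2216 in MOLM-14, 1975 and 3026 in NOMO-1, and 2001 and 1762 in SKM-1, in each line on the same side as HSPD1 itself. The pseudogene HSPD1P6 had 50.2 and 47.0, 48.2 and 75.7, and 53.9 and 45.0 in the same order. Of the 100-base windows of HSPD1, 3.57% occurred in HSPD1P1 and 1.32% in HSPD1P6. Whether reads of the parent gene were counted for the pseudogenes was not tested.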
